A study of Mus musculus with 46 samples.

Results

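Microglial genes were followed across the whole table as a module of 35 genes, of 43346 genes measured. They are genes that mark microglia, the resident macrophages of the brain, in 4 groups by role: 12 homeostatic surface and identity genes, the 3 subunits of complement C1q, 10 genes of phagocytosis and its receptors, and 10 genes shared with other leukocytes. The members were chosen by what the genes are known to mark, but with earlier results of these data known. All 35 passed the filter on low counts in striatum (17394 genes tested) and in cortex (17484 genes tested). Gene expression was measured by RNA sequencing of right striatum and right cortex from 23 mice aged 12 weeks on a C57BL6/J background. R6/2 mice carry Tg(HDexon1)62Gpb, a transgene with exon 1 of the human huntingtin gene and an expanded CAG repeat, and are a fast-progressing model of Huntington's disease. One group of 8 R6/2 mice (4 females, 4 males) received CHDI-00340246, an inhibitor of kynurenine 3-monooxygenase (KMO), by mouth at 30 mg/kg, 2 doses a day, between 4 and 12 weeks of age. A second group of 7 R6/2 mice (4 females, 3 males) and a group of 8 wild-type mice (WT; 4 females, 4 males) received vehicle. No WT mouse received the compound, so its effect could be read in R6/2 mice only. Each mouse gave 1 library per tissue, 46 in all, and replicates are therefore separate animals.

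Microglia hold a resting program that depends on signals from neighbouring cells: CSF1R on microglia binds CSF1 and IL-34, CX3CR1 binds the neuronal ligand fractalkine, and TGF-beta keeps the homeostatic genes on. Homeostatic microglia sense extracellular nucleotides through P2RY12 and P2RY13, make most of the C1q of the brain, and clear debris through receptors such as TREM2, with its adaptor TYROBP, and MERTK. When microglia meet damage in neurodegeneration models, part of the homeostatic program is known to go down while lysosomal and lipid-handling genes go up; KMO, an enzyme of the kynurenine pathway, is itself thought to act mainly in microglia in the brain.

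The libraries held 30385125 to 36040325 estimated counts in striatum and 31792321 to 37825600 in cortex. The dopamine receptor gene Drd2, a marker of striatal neurons, lay at 19.1 CPM (TMM-scaled counts per 1e+06 counts of the library) or more in every striatal library, against 3.41 CPM or less in every cortical one. Gm12695 was at 2.57 CPM or more in every R6/2 library and at 0.158 CPM or less in every WT library, so this gene separated the labelled genotypes. Whether it reports genotype independently of these data was not tested. All pairs of libraries within a group differed by more than sampling noise (lowest chi-square per degree of freedom 7.72). The library names also carry a tag, L1 to L8, whose meaning is not given. In the cortex no inhibitor library shared a tag with a WT library, so those groups and the tag cannot be told apart except through the vehicle R6/2 mice, which shared tags with both. Neither WT nor vehicle R6/2 mice shared a tag between striatal and cortical libraries, so in these groups tissue and tag cannot be told apart.

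Promoter windows of 300 bases (250 before to 50 after the transcription start, RefSeq, GRCm38.p6) were held for 27 of the 35 members. Some genes had more than 1 window, and a gene was counted when any of its windows held the string. The purine-rich core GAGGAA, bound by PU.1, the myeloid factor that the member Spi1 encodes, was present on either strand in 18 of these 27 members (66.7%), against 31.3% of all 27025 genes with a window. The longer strings GAGGAAG and GAGGAAGT, which contain the core, were found in 12 and 4 members (44.4% and 14.8%), against 15.4% and 3.69% of all genes with a window. The still longer AGAGGAAGT was found in 0 members and in 1.18% of all genes with a window. Of 10 members with a window that were lower in R6/2 striatum (values below), 6 held GAGGAA, 2 GAGGAAG and 0 GAGGAAGT. In all 12 strings were searched on both strands. Of the other 8, GGAAGT, which overlaps the longer strings, was in 48.1% of members with a window, against 26.5% of all genes with a window. Member shares against those of all genes with a window were 11.1% against 9.42% for GGAANNGAA, 3.7% against 3.16% for that string with 1 more A at its end, 18.5% against 15.7% for TATAAA, 7.41% against 8.97% for TGANTCA and 7.41% against 8.09% for CACGTG. TCACGTGA, which contains CACGTG, was in 1 member and 1.12% of all genes with a window, and TGACGTCA in 0 and 2.03%. A match is a description of letters in the window and not a bound site. Cx3cr1 and P2ry12, each with 1 window, held no GAGGAA and are not shown. The windows of 4 members chosen by hand are shown, each read 5′ to 3′ on the gene's strand with GAGGAA, or its reverse complement TTCCTC, in capitals: P2ry13 (chr3:59210833-59211132, minus strand), Cd33 (chr7:43533122-43533421, minus strand), C1qb (chr4:136886151-136886450, minus strand) and Mertk (chr2:128698665-128698964, plus strand, no match in this window).
P2ry13: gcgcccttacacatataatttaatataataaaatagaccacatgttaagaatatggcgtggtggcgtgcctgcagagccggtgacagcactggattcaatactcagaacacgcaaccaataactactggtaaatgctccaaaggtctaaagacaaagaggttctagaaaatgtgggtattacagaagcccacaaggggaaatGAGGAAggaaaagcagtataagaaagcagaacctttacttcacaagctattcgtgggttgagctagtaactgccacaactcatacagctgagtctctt
Cd33: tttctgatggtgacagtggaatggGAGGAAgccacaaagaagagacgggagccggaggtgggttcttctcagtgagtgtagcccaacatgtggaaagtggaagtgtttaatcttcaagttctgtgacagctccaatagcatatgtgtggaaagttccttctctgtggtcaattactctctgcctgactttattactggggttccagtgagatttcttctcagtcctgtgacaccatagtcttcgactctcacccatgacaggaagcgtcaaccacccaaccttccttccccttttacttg
C1qb: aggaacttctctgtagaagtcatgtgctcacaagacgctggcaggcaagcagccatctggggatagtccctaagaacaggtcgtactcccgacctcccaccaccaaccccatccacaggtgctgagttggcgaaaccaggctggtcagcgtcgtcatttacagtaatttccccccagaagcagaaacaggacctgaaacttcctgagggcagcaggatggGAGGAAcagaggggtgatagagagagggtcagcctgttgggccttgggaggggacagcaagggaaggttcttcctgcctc
Mertk: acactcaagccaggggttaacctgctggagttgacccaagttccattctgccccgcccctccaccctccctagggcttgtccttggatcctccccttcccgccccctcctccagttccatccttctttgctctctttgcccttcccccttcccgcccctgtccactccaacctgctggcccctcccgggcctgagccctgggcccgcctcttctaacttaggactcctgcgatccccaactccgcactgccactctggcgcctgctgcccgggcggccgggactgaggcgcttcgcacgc

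Compared per length of transcript (FPKM), the members spanned more than an order of magnitude. In WT striatum Ctss, which encodes the lysosomal protease cathepsin S, stood first at 56.8 FPKM, followed by C1qb at 40.5, C1qa at 39.1, Csf1r at 34.4, C1qc at 29.8 and P2ry12 at 23.2 FPKM. Ptprc, which encodes the leukocyte phosphatase CD45, was the lowest of the 35 in WT striatum at 1.002 FPKM. In WT cortex Ctss again led at 38.7 FPKM. Together the members made up 0.103% of all FPKM in WT striatum and 0.0794% in WT cortex.

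Members were higher in striatum than in cortex of the same WT animals, with no tag shared between the tissues. Of 35 members 31 were higher and 1 was lower (edgeR quasi-likelihood test with the animal as a block, Benjamini-Hochberg adjusted p under 0.05 over all genes), beside 31.2% of all genes called higher and 31.6% called lower (62.8% in all); the median log2 difference, striatum over cortex, was 0.39 for the members and 0.0068 for all genes. Cd68, a lysosomal membrane glycoprotein of phagocytes, differed most (log2 fold change 1.03 ± 0.083, adjusted p = 4.09e-07). Cx3cr1 was higher too (log2 fold change 0.50 ± 0.046, adjusted p = 1.12e-06). Mertk, a receptor for apoptotic cells that astrocytes also express, was the 1 member lower in striatum (log2 fold change -0.27 ± 0.057, adjusted p = 0.00134). Fcrls, Stab1 and Cd33 were not called, with log2 differences of -0.053, 0.14 and 0.16.

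In the striatum, R6/2 mice given vehicle had lower levels of 6 of 12 homeostatic, 1 of 3 C1q, 4 of 10 phagocytic and 3 of 10 leukocyte genes than WT mice, with the 14 that fell down by 12.5% to 32.4%. Of the 35 members 14 fell and 1 rose (edgeR quasi-likelihood test on 23 striatal libraries with sex as covariate, adjusted p under 0.05). That is 40.0% of the members lower, against 24.5% of all genes lower, and 42.9% of the members called in either direction, against 50.2% of all genes; 25.8% of all genes rose. The log2 fold change was negative for 32 of 35 members, with a median of -0.20 beside 0.0017 over all genes. In bulk tissue, fewer microglia and less RNA per microglial cell cannot be told apart.

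The size of this difference depended on the scaling. With libraries scaled by total counts alone the median log2 fold change of all genes moved up by 0.13, and 5 members fell and 2 rose (Sall1 and Ctss); 26 log2 fold changes were then negative. Relative to the median of all genes, the members' median was -0.20 under both scalings. Aif1, Cd33, Cx3cr1, Mertk and P2ry13 were called lower under both. Summed over the 35 members, levels were 788 ± 75.8 CPM in inhibitor R6/2 mice (n = 8), 860.2 ± 48.4 CPM in vehicle R6/2 mice (n = 7) and 980.3 ± 98.3 CPM in WT mice (SD, n = 8). The vehicle range of 770.3 to 924 CPM overlapped the WT range of 884 to 1150.5 CPM at its upper end. Within each tag that both groups shared, vehicle R6/2 mice were lower, though with few animals. The L1 values were 863 against 1150.5 CPM (1 animal each). The means were 829 against 889.6 CPM in L2 and 890.5 against 1012 CPM in L3 (3 against 2 animals in each). WT replicate 1, the L1 library, was the highest of all; without it 10 members fell and 1 rose, with a median log2 fold change of -0.16. Without vehicle R6/2 replicate 2, and likewise without vehicle R6/2 replicate 4, 9 fell and 1 rose, and without WT replicate 8, 10 fell and 0 rose; these 3 counts were the lowest of the 23 fits that left out 1 library.

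**Figure D1:**
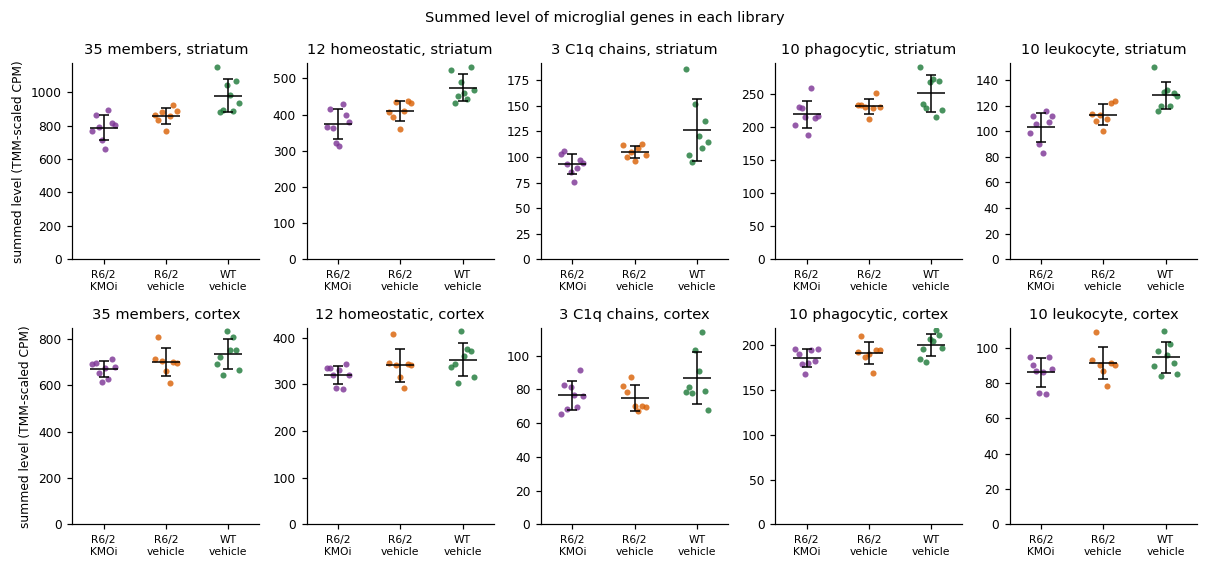
Summed CPM of the members in each animal, by group and tissue; points are animals and bars are group means with SD error bars. Panels show all 35 members and the 4 groups by role. In striatum the sum of all 35 averaged 788 CPM in inhibitor R6/2 mice, 860.2 CPM in vehicle R6/2 mice and 980.3 CPM in WT mice, and in cortex 669, 699 and 734 CPM.

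Homeostatic receptors were among the genes that fell in striatum: 6 of 12 homeostatic genes fell and 1 rose, with a median log2 fold change of -0.21 in vehicle R6/2 against WT mice. That is 50% lower and 58.3% called in either direction, against 24.5% and 50.2% of all genes. Cx3cr1 (reference annotation chr9:119901616-120069879, mm10), the fractalkine receptor, had a lowest, median and highest level of 41.4, 51.4 and 57.9 CPM in inhibitor R6/2 mice, 52.7, 58.3 and 66.6 CPM in vehicle R6/2 mice and 66.8, 70.8 and 85.5 CPM in WT mice. In TMM-scaled CPM every vehicle R6/2 animal and every inhibitor R6/2 animal lay below every WT animal. As FPKM the vehicle R6/2 and WT ranges overlapped, with vehicle animals up to 20.5 and the lowest WT animal at 18.3 FPKM. Inhibitor animals, up to 17.9 FPKM, stayed below. The drop in vehicle R6/2 mice was 18.9% (log2 fold change -0.30 ± 0.059, adjusted p = 0.000173), and this call held under every alternative setting and every left-out library tried.

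The ADP receptor P2ry13 had levels of 9.51, 11.8 and 16.4 CPM in inhibitor R6/2 mice, 11.53, 14.4 and 15.8 CPM in vehicle R6/2 mice and 14.6, 18.1 and 21.3 CPM in WT mice. Vehicle R6/2 and WT ranges overlapped by little (log2 fold change -0.35 ± 0.095, adjusted p = 0.00378). P2ry12, the related ADP receptor next to it on chromosome 3 (chr3:59216272-59262871), had 31.3, 37.7 and 48.2 CPM in inhibitor R6/2 mice, 36.7, 43.8 and 49.2 CPM in vehicle R6/2 mice and 45.1, 49.5 and 64.01 CPM in WT mice. The vehicle R6/2 and WT ranges overlapped, although all 7 vehicle R6/2 animals lay below the WT median (log2 fold change -0.24 ± 0.085, adjusted p = 0.0218). Without vehicle R6/2 replicate 2 (adjusted p = 0.0502), or with total-count scaling, P2ry12 was no longer called.

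Gpr34, a receptor for lysophosphatidylserine, had 10.3, 13.7 and 16.9 CPM in inhibitor R6/2 mice, 12.5, 14.9 and 16.4 CPM in vehicle R6/2 mice and 13.95, 17.5 and 25.5 CPM in WT mice. The ranges overlapped (log2 fold change -0.31 ± 0.10, adjusted p = 0.0149), and the call was absent under total-count scaling and with the library tag as covariate. Csf1r, on which microglial survival depends, was measured at 93.3, 116 and 133 CPM in inhibitor R6/2 mice, 108, 121 and 145 CPM in vehicle R6/2 mice and 129, 137 and 179 CPM in WT mice. It was lower by a smaller step and with overlapping ranges (log2 fold change -0.20 ± 0.077, adjusted p = 0.0355), a call absent under total-count scaling and in 8 of 23 fits that left out 1 library (adjusted p up to 0.0793). Siglech, a sialic acid-binding lectin, fell as well (log2 fold change -0.22 ± 0.084, adjusted p = 0.0298), a call absent under both of these settings and in 7 of 23 fits that left out 1 library (adjusted p up to 0.0707).

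Tmem119, a membrane protein often used to tell microglia from other macrophages, was not called: it had 17.2, 20.8 and 22.6 CPM in inhibitor R6/2 mice, 18.2, 22.8 and 25.99 CPM in vehicle R6/2 mice and 18.2, 23.6 and 31.1 CPM in WT mice, with overlapping ranges (log2 fold change -0.060 ± 0.091, adjusted p = 0.606, 95% interval -0.25 to 0.13); with total-count scaling its log2 fold change was 0.067. Fcrls, an Fc receptor-like marker of mouse microglia, had a larger but more variable difference that missed the threshold (log2 fold change -0.50 ± 0.21, adjusted p = 0.0573). Olfml3, Selplg and Slc2a5 were also not called, with log2 fold changes of -0.18, -0.094 and -0.14. Sall1, a transcription factor of microglial identity, was the 1 member that rose. Its levels were 39.8, 42.1 and 46.9 CPM in inhibitor R6/2 mice, 40.5, 43.6 and 48.9 CPM in vehicle R6/2 mice and 35.8, 39.3 and 46.5 CPM in WT mice, with overlapping ranges (log2 fold change 0.14 ± 0.051, adjusted p = 0.0273); it was not called without vehicle R6/2 replicate 6, WT replicate 6 or WT replicate 8 (adjusted p up to 0.0772).

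**Figure D2:**
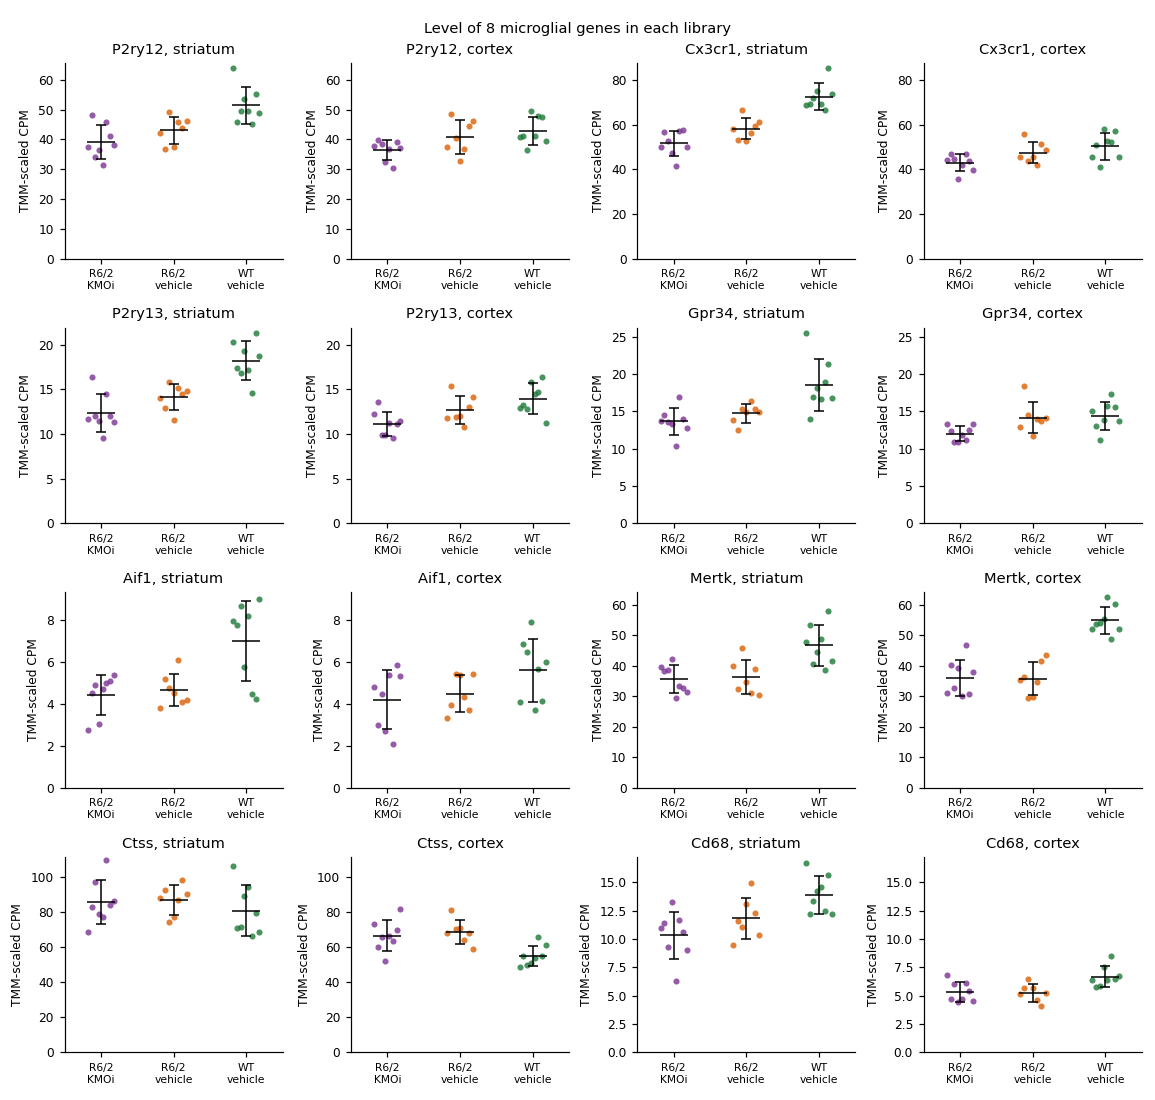
CPM of 8 members in each animal, by group and tissue; points are animals and black bars are group means with SD. In these TMM-scaled CPM, striatal Cx3cr1 and cortical Mertk separated vehicle R6/2 from WT animals without overlap, while cortical Cx3cr1 overlapped. As FPKM the striatal Cx3cr1 ranges overlapped.

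The C1q genes stand side by side on chromosome 4, C1qa at chr4:136895917-136898803, C1qc at chr4:136889804-136893065 and C1qb at chr4:136880129-136886187 (mm10). C1qb had 24.4, 31.7 and 37.8 CPM in inhibitor R6/2 mice, 31.9, 36.2 and 40.7 CPM in vehicle R6/2 mice and 31.95, 42.5 and 68.1 CPM in WT mice in striatum. The groups overlapped, and WT animals spread widely (log2 fold change -0.33 ± 0.13, adjusted p = 0.0433); the call was lost in 9 of 23 fits without 1 library (adjusted p up to 0.108) and under total-count scaling. C1qa had 28.5, 33.9 and 37.5 CPM in inhibitor R6/2 mice, 30.8, 37.4 and 43.5 CPM in vehicle R6/2 mice and 32.6, 41.4 and 58.8 CPM in WT mice and was not called (log2 fold change -0.18 ± 0.10, adjusted p = 0.136). C1qc was not called either (log2 fold change -0.26 ± 0.12, adjusted p = 0.0819). Over the 3 subunits the median log2 fold change was -0.26.

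Of the 10 phagocytic genes 4 fell in vehicle R6/2 striatum and none rose, with a median log2 fold change of -0.20. That is 40% lower, against 24.5% of all genes, and 40% called in either direction, against 50.2% of all genes. Mertk (chr2:128698956-128802894) had 29.4, 35.96 and 42.2 CPM in inhibitor R6/2 mice, 30.5, 34.8 and 45.9 CPM in vehicle R6/2 mice and 38.8, 46.1 and 58.1 CPM in WT mice. The ranges of vehicle R6/2 and WT animals overlapped (log2 fold change -0.35 ± 0.098, adjusted p = 0.00478). Tyrobp, the signalling adaptor of TREM2, had 9.55, 10.2 and 11.1 CPM in inhibitor R6/2 mice, 9.19, 10.6 and 12.1 CPM in vehicle R6/2 mice and 9.74, 12.6 and 18.3 CPM in WT mice and fell with overlapping ranges (log2 fold change -0.27 ± 0.10, adjusted p = 0.0305), a call absent under total-count scaling and in 5 of 23 fits that left out 1 library. Stab1, a scavenger receptor, and Itgb2, the beta chain of complement receptor 3, were called near the threshold (log2 fold changes -0.20 and -0.19, adjusted p = 0.0290 and 0.0446); both calls were absent under total-count scaling. Trem2, the lipid-sensing receptor itself, had 8.44, 11.3 and 13.4 CPM in inhibitor R6/2 mice, 11.6, 12.2 and 14.2 CPM in vehicle R6/2 mice and 11.9, 14.6 and 18.04 CPM in WT mice and was not called (log2 fold change -0.18 ± 0.093, adjusted p = 0.120). Ctss was not called (log2 fold change 0.12 ± 0.10, adjusted p = 0.340), nor were Cd68, Fcer1g, Fcgr3 and Itgam.

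Of the 10 leukocyte genes 3 fell, which is 30% of them, near the 24.5% of all genes that fell. Cd33, a sialic acid-binding inhibitory receptor, had 3.85, 5.04 and 5.68 CPM in inhibitor R6/2 mice, 4.56, 4.99 and 5.94 CPM in vehicle R6/2 mice and 6.09, 6.93 and 7.54 CPM in WT mice. In TMM-scaled CPM no vehicle or inhibitor R6/2 animal reached the lowest WT animal (log2 fold change -0.37 ± 0.090, adjusted p = 0.00140). The call held under every alternative setting and every left-out library tried. As FPKM the ranges overlapped, with vehicle and inhibitor R6/2 animals up to 2.52 and 2.43 and the lowest WT animal at 2.27 FPKM. Aif1, which encodes the microglial marker IBA1, had 2.78, 4.81 and 5.38 CPM in inhibitor R6/2 mice, 3.80, 4.54 and 6.08 CPM in vehicle R6/2 mice and 4.24, 7.87 and 9.03 CPM in WT mice. Its log2 fold change was the most negative of the 35, with overlapping ranges (log2 fold change -0.56 ± 0.17, adjusted p = 0.00947). Irf8, a myeloid transcription factor, fell (log2 fold change -0.31 ± 0.097, adjusted p = 0.0108; not called under total-count scaling), while Spi1, which encodes PU.1, was not called (log2 fold change -0.11 ± 0.13, adjusted p = 0.531). Ly86, Laptm5, Cd53, Ptprc, Csf3r and Inpp5d were not called.

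In the cortex fewer members were called between vehicle R6/2 and WT mice, and none of those called was homeostatic. Of 35 members 4 fell and 1 rose: 11.4% lower, against 22.6% of all genes lower, and 14.3% called in either direction, against 44.1% of all genes (21.5% higher). The share of members called was therefore under that of all genes. The median log2 fold change was -0.074 for the members and -0.042 for the 12 homeostatic genes, beside 0.0025 for all genes. With total-count scaling 3 members fell and 4 rose, and the members' median turned to 0.010. Summed levels were 669 ± 34.1 CPM in inhibitor R6/2 mice, 699 ± 59.8 CPM in vehicle R6/2 mice and 734 ± 66.4 CPM in WT mice (SD, n = 8, 7 and 8), with overlapping ranges.

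Mertk differed most in the cortex, at 30.2, 35.4 and 46.8 CPM in inhibitor R6/2 mice, 29.3, 35.3 and 43.4 CPM in vehicle R6/2 mice and 48.7, 53.9 and 62.5 CPM in WT mice. No R6/2 animal of either group reached the lowest WT animal. The drop in vehicle R6/2 mice was 35.5% (log2 fold change -0.63 ± 0.097, adjusted p = 1.27e-05). Inpp5d, which encodes the phosphatase SHIP1 that acts against TREM2 signalling, had 11.1, 12.3 and 15.03 CPM in inhibitor R6/2 mice, 10.6, 13.5 and 14.5 CPM in vehicle R6/2 mice and 14.6, 15.8 and 18.7 CPM in WT mice. Vehicle R6/2 animals did not overlap WT animals (log2 fold change -0.34 ± 0.079, adjusted p = 0.00122). Both calls held under every alternative setting and every left-out library tried.

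Cortical Cd68 had 4.45, 5.06 and 6.85 CPM in inhibitor R6/2 mice, 4.07, 5.199 and 6.48 CPM in vehicle R6/2 mice and 5.798, 6.42 and 8.46 CPM in WT mice. The ranges overlapped (log2 fold change -0.37 ± 0.11, adjusted p = 0.00851). C1qb was at 22.5, 24.8 and 33.4 CPM in inhibitor R6/2 mice, 21.9, 25.8 and 32.2 CPM in vehicle R6/2 mice and 25.1, 28.7 and 40.4 CPM in WT mice, with overlapping ranges and a call close to the threshold (log2 fold change -0.26 ± 0.10, adjusted p = 0.0438); it was lost in 10 of 23 fits without 1 library (adjusted p up to 0.115). Ctss rose, at 52.1, 65.9 and 81.7 CPM in inhibitor R6/2 mice, 58.96, 68.3 and 81.1 CPM in vehicle R6/2 mice and 48.9, 54.5 and 65.5 CPM in WT mice. The ranges overlapped (log2 fold change 0.31 ± 0.079, adjusted p = 0.00253), and with the library tag as covariate Ctss was no longer called (adjusted p = 0.0857).

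The other members named by rule were not called in the cortex. P2ry12 had 30.5, 37.5 and 39.9 CPM in inhibitor R6/2 mice, 32.7, 40.5 and 48.5 CPM in vehicle R6/2 mice and 36.6, 41.1 and 49.5 CPM in WT mice (log2 fold change -0.086 ± 0.079, adjusted p = 0.403). Cx3cr1 had 35.8, 44.1 and 46.9 CPM in inhibitor R6/2 mice, 41.9, 45.5 and 55.9 CPM in vehicle R6/2 mice and 41.1, 51.5 and 58.2 CPM in WT mice (log2 fold change -0.097 ± 0.075, adjusted p = 0.314). In both the 3 ranges overlapped. Tmem119 had 15.2, 17.98 and 20.2 CPM in inhibitor R6/2 mice, 14.3, 18.1 and 20.3 CPM in vehicle R6/2 mice and 13.1, 17.8 and 23.1 CPM in WT mice, and Csf1r had 89.03, 98.1 and 104 CPM in inhibitor R6/2 mice, 80.95, 96.04 and 115 CPM in vehicle R6/2 mice and 84.1, 105 and 116 CPM in WT mice. Neither was called, with log2 fold changes of -0.022 ± 0.096 and -0.079 ± 0.074. C1qa, Trem2 and Tyrobp had log2 fold changes of -0.20, -0.23 and -0.20 (adjusted p = 0.109, 0.0988 and 0.102). C1qa stood at 25.05, 27.2 and 30.4 CPM in inhibitor R6/2 mice, 20.2, 24.9 and 30.9 CPM in vehicle R6/2 mice and 23.2, 28.6 and 36.04 CPM in WT mice. Trem2 stood at 7.64, 8.87 and 10.4 CPM in inhibitor R6/2 mice, 7.77, 9.07 and 11.1 CPM in vehicle R6/2 mice and 8.46, 10.4 and 15.2 CPM in WT mice, and Tyrobp at 7.46, 8.47 and 10.3 CPM in inhibitor R6/2 mice, 7.45, 8.63 and 10.4 CPM in vehicle R6/2 mice and 8.23, 9.38 and 13.2 CPM in WT mice; in all 3 genes the groups overlapped.

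**Figure D3:**
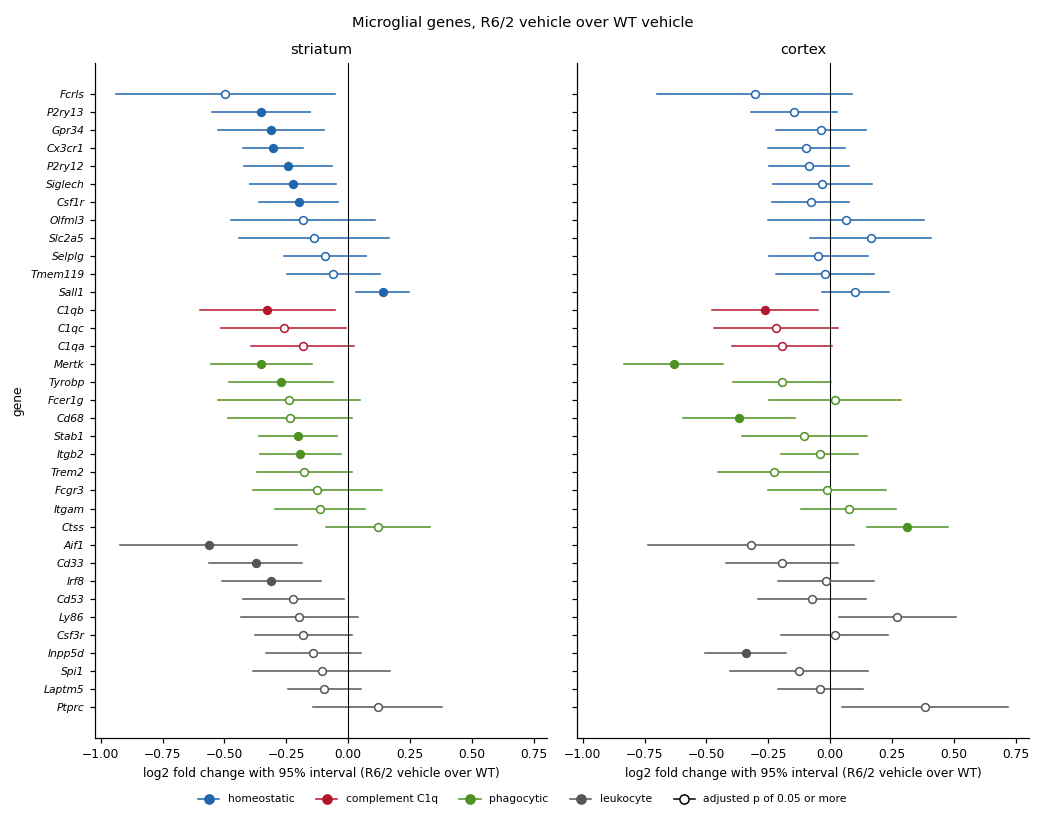
Log2 fold change of each member, vehicle R6/2 over WT, in striatum and in cortex, with 95% intervals; filled points were called. In striatum 14 members lie below 0 and 1 above among those called, and in cortex 4 lie below and 1 above.

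Whether the genotype difference itself differed between tissues was tested in a single fit of the 46 libraries that blocked on the animal. The difference was more negative in striatum for 7 members and more positive for 1, which is 20% and 2.86% of the members, against 8.74% and 7.06% of all genes. Neither genotype group shared a tag between tissues, so tissue and tag cannot be told apart within a group. Ly86, which encodes MD-1, a partner of the receptor RP105, stood at 7.11, 10.4 and 12.98 CPM in inhibitor R6/2 mice, 9.56, 10.7 and 12.6 CPM in vehicle R6/2 mice and 10.48, 12.4 and 18.5 CPM in WT mice in striatum and at 6.09, 8.12 and 9.85 CPM in inhibitor R6/2 mice, 7.61, 9.23 and 11.03 CPM in vehicle R6/2 mice and 6.45, 6.79 and 9.06 CPM in WT mice in cortex. Vehicle R6/2 and WT animals overlapped in both tissues, with a log2 fold change of -0.20 in striatum and 0.27 in cortex. The striatal minus cortical log2 fold change was -0.50 ± 0.13 (adjusted p = 0.0101), and of the 8 calls it was the only one held under all 5 alternatives.

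Slc2a5 had log2 fold changes of -0.14 in striatum and 0.16 in cortex, a difference of -0.33 ± 0.10 (adjusted p = 0.0304). Slc2a5, a fructose transporter, had medians of 5.72, 6.60 and 7.59 CPM in inhibitor R6/2, vehicle R6/2 and WT striatum. Irf8 had log2 fold changes of -0.31 in striatum and -0.017 in cortex, a difference of -0.32 ± 0.11 (adjusted p = 0.0398). Olfml3 had log2 fold changes of -0.18 in striatum and 0.065 in cortex, a difference of -0.29 ± 0.092 (adjusted p = 0.0313); Olfml3 encodes a secreted protein. The striatal minus cortical differences of Gpr34, Cx3cr1 and P2ry13 were -0.29, -0.24 and -0.23 on the log2 scale (adjusted p = 0.0247, 0.0356 and 0.0300). Mertk went the other way, being lower by more in cortex (0.26 ± 0.073, adjusted p = 0.0170). With total-count scaling Ly86 and Mertk remained called, and without the animal block Ly86 alone. Called lower in both tissues were C1qb and Mertk, 13.3% of the 15 striatal calls and 40.0% of the 5 cortical ones. The share of all genes called in both tissues was not counted, so whether this is few or many cannot be told.

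The KMO inhibitor gave no called difference in any member. In the comparison of inhibitor with vehicle R6/2 mice 0 of 35 members were called in striatum and 0 of 35 in cortex, as for all genes (0% called in each tissue by edgeR, and 0 by DESeq2 for the members). At an unadjusted p under 0.05 there were 4 members in striatum (Stab1, Cx3cr1, Laptm5 and Selplg) and 3 in cortex (Gpr34, P2ry13 and P2ry12), beside 464 and 1015 of all genes. The adjusted p of every member was 0.99997 in striatum, and in cortex they lay between 0.836 and 0.998. The striatal log2 fold changes leaned below 0, in 34 of 35 members, with a median of -0.14 beside 0.0045 for all genes; in cortex 26 of 35 were below 0, with a median of -0.058 beside -0.0034 for all genes. Members of 1 animal move together, so these counts of signs are not independent. In each tissue the 95% interval of 34 of 35 members lay within 1.5-fold, Fcrls being the exception.

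Cx3cr1 in striatum averaged 51.7 ± 5.68 CPM in inhibitor R6/2 mice and 58.3 ± 4.80 CPM in vehicle R6/2 mice (SD, n = 8 and 7), a log2 fold change of -0.18 with a 95% interval of -0.30 to -0.057. P2ry12 averaged 39.03 ± 5.70 CPM in inhibitor R6/2 mice and 43.04 ± 4.59 CPM in vehicle R6/2 mice (-0.14, interval -0.32 to 0.033). The ranges of both genes overlapped, as did those of every member in this comparison in either tissue. In striatum C1qa and Trem2 had intervals of -0.36 to 0.061 and -0.36 to 0.028, and Tmem119 of -0.35 to 0.029. Fcrls had the most negative striatal log2 fold change, -0.38 with an interval of -0.83 to 0.070. In cortex Cx3cr1 had an interval of -0.30 to 0.0077 and Mertk of -0.18 to 0.21. No member was called for a difference of the inhibitor effect between tissues (0% of all genes, 1258 at an unadjusted p under 0.05).

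**Figure D4:**
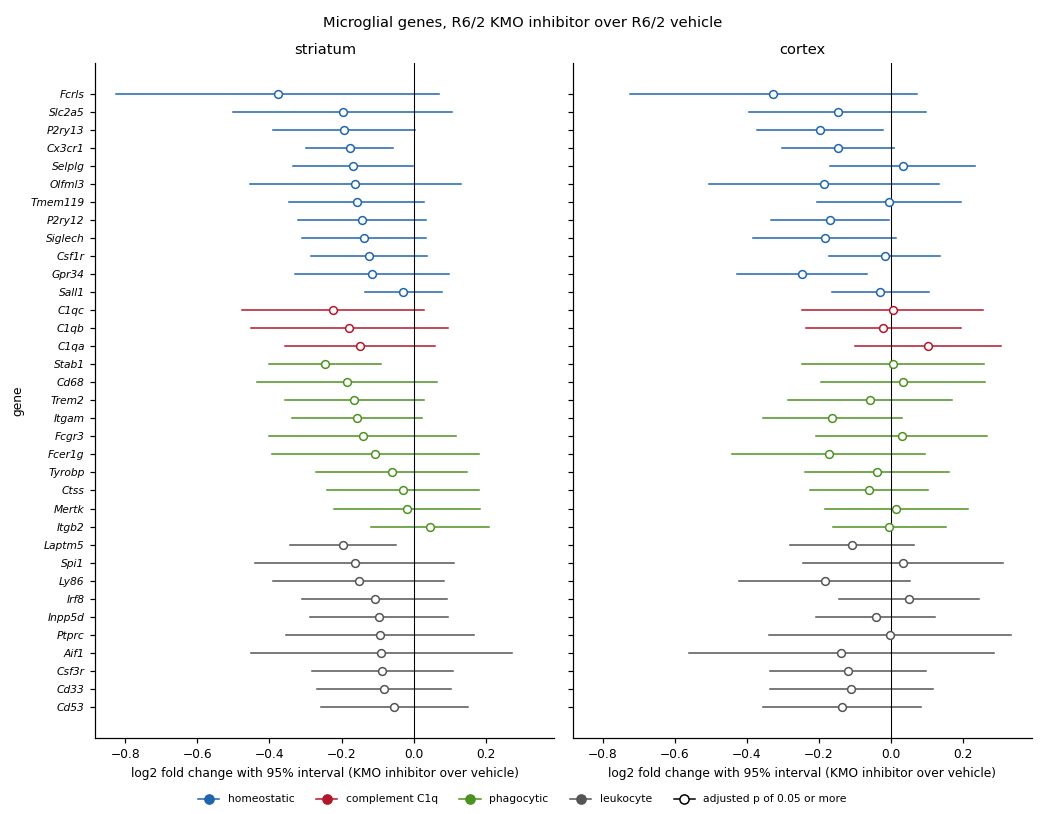
Log2 fold change of each member, inhibitor over vehicle R6/2 mice, in striatum and in cortex, with 95% intervals. No member was called, and 34 of 35 striatal and 26 of 35 cortical values lie below 0.

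Inhibitor R6/2 mice were set against WT mice as well. In striatum 28 of 35 members were lower and none was higher (80.0%, against 25.2% of all genes lower and 52.9% called in all). They comprised 10 of 12 homeostatic, 3 of 3 C1q, 7 of 10 phagocytic and 8 of 10 leukocyte genes, and the median log2 fold change was -0.34, beside 0.017 for all genes. With total-count scaling 16 were lower and 2 (Sall1 and Ctss) higher, after an upward shift of 0.14 in the median of all genes. Fcrls had the most negative log2 fold change, with levels of 4.59, 10.9996 and 16.1 CPM in inhibitor R6/2 mice, 9.48, 14.1 and 19.8 CPM in vehicle R6/2 mice and 13.7, 21.2 and 30.1 CPM in WT mice; the inhibitor and WT ranges overlapped (log2 fold change -0.87 ± 0.21, adjusted p = 0.00124). P2ry13, C1qb and Cx3cr1 had log2 fold changes of -0.54 ± 0.092, -0.50 ± 0.13 and -0.48 ± 0.057 (adjusted p = 3.16e-05, 0.00196 and 2.59e-07). The same WT animals served both comparisons, so these are not independent of the vehicle values above.

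In cortex 12 members were lower and 1 was higher in inhibitor R6/2 than in WT mice. That is 34.3% lower, against 23.9% of all genes lower (22.8% higher). In either direction 37.1% of the members were called, under the 46.7% of all genes. Mertk had a log2 fold change of -0.62 ± 0.093 (adjusted p = 8.96e-06), Inpp5d of -0.38, P2ry13 of -0.34 and Fcrls of -0.63. Ctss was the higher one (log2 fold change 0.25 ± 0.077, adjusted p = 0.00966). With the library tag as covariate 9 were lower and 0 higher, and with total-count scaling 4 were lower and 3 higher.

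The effects were also compared between sexes. No member was called for a female minus male difference of the genotype or inhibitor effect in either tissue (0% of all genes called in each; 773, 761, 1097 and 2355 genes at an unadjusted p under 0.05). The nearest member to a call was Mertk for the inhibitor effect in cortex (0.61 ± 0.15, adjusted p = 0.196). In striatum summed levels averaged 750.7 CPM in inhibitor-treated R6/2 females and 825 CPM in inhibitor-treated R6/2 males, against 847 and 878 CPM in vehicle R6/2 females and males. In cortex the female minus male difference of the genotype effect was negative for 32 of 35 members and for 12 of 12 homeostatic genes, with medians of -0.19 and -0.26, beside 0.018 for all genes; 4 members had an unadjusted p under 0.05 and the lowest adjusted p was 0.611. Members of 1 animal move together, so these signs are not independent. Cortical sums averaged 673 CPM in vehicle R6/2 females and 751 CPM in WT females, and 734 CPM in vehicle R6/2 males and 718 CPM in WT males. The mean of the 3 vehicle R6/2 males was raised by 1 animal at 806.6 CPM. The others stood at 700.6 and 695.8 CPM, within the WT male range of 646.1 to 753.7 CPM.

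Genes tied to microglial states or signals but not among the 35 were counted in lists grouped by function, each as vehicle R6/2 over WT (log2 fold change ± SE). Some are made by other cells, as Cx3cl1 by neurons and Apoe and Clu by astrocytes. In bulk tissue the differences in these lists cannot be assigned to microglia. Of all genes 24.5% fell and 25.8% rose in striatum, and 22.6% fell and 21.5% rose in cortex. In striatum the shares that fell of the disease-associated, TREM2 and Fc receptor, and lysosomal lists were near this background. The same held in cortex for the disease-associated list and for the TREM2 and Fc receptor list. Of 17 genes tested on a list of disease-associated microglia, which mark the state found around damage, 5 fell and 1 rose in striatum, and 4 fell and 3 rose in cortex (median -0.12 and 0.069). In striatum Spp1 (-1.66 ± 0.20, adjusted p = 5.18e-07), the secreted protein osteopontin, Apoe (-0.60 ± 0.11, adjusted p = 7.61e-05), a lipid carrier that astrocytes also make, and Axl (-0.57 ± 0.051, adjusted p = 5.91e-09), a relative of Mertk, fell. Apoe and Axl also fell in cortex (-0.58 and -0.52, adjusted p = 4.91e-05 and 1.74e-06). The glucan receptor gene Clec7a rose in both tissues (0.73 and 0.84, adjusted p = 0.0176 and 0.0462). Its level was low, at 0.699 ± 0.248 CPM in the striatum of vehicle R6/2 mice, against 0.422 ± 0.174 CPM in that of WT mice (SD, n = 7 and 8). In cortex Gpnmb (0.85 ± 0.24, adjusted p = 0.00495) and Lgals3 (0.68 ± 0.25, adjusted p = 0.0292), both found in lipid-laden phagocytes, rose, while Lpl (-0.76 ± 0.20, adjusted p = 0.00292), a lipase, fell.

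Among 11 genes of CSF1R, CX3CR1 and TGF-beta signalling 5 fell and 1 rose in striatum, and 4 fell and 1 rose in cortex. Cx3cl1, the neuronal gene of the CX3CR1 ligand fractalkine, fell in both tissues, by 0.81 ± 0.065 in striatum and by 0.72 ± 0.064 in cortex on the log2 scale (adjusted p = 1.31e-09 and 4.66e-09). Of the TGF-beta signal transducers Smad3 fell in both tissues (-0.32 and -0.60, adjusted p = 0.0169 and 0.000148) and Smad2 rose in both (0.34 and 0.29, adjusted p = 3.62e-06 and 0.000145). The TGF-beta receptor gene Tgfbr1 fell in striatum (-0.28, adjusted p = 2.50e-05). Of 9 genes tested downstream of TREM2 and Fc receptors 2 fell and none rose in each tissue: the adaptor gene Dok3 (-1.56 in striatum and -1.71 in cortex, adjusted p = 8.48e-09 and 3.31e-08) and the kinase gene Syk (-0.24 and -0.55, adjusted p = 0.0187 and 0.000601).

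Of 12 complement genes other than C1q 5 fell and none rose in striatum, and 2 fell and 1 rose in cortex. In striatum C3 (-0.88 ± 0.31, adjusted p = 0.0198), the central component, Cd55 (-0.74 ± 0.17, adjusted p = 0.000803) and Cd59a (-0.67 ± 0.15, adjusted p = 0.000877), both regulators that protect host cells, and Clu (-0.64 ± 0.067, adjusted p = 5.75e-08), a fluid-phase regulator that astrocytes make, fell. In cortex C4b (0.42 ± 0.14, adjusted p = 0.0158) rose, while Cd46 (-0.39 ± 0.12, adjusted p = 0.00800), which fell in striatum too (-0.31, adjusted p = 0.0330), and Clu (-0.40 ± 0.054, adjusted p = 2.54e-06) fell. Of 8 inflammatory genes tested, of 14 listed, 1 fell and 1 rose in each tissue. Il18 fell in both (-0.54 in striatum and -0.56 in cortex, adjusted p = 2.42e-05 and 9.59e-07). The sensor genes Tlr2 (0.43 ± 0.16, adjusted p = 0.0285) in striatum and Cd14 (0.45 ± 0.15, adjusted p = 0.0168) in cortex rose. The other 6 listed genes did not pass the filter.

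Of 15 lysosomal genes 4 fell and 3 rose in striatum, and 1 fell and 3 rose in cortex. Grn, which encodes progranulin, rose in both (0.37 ± 0.056 and 0.40 ± 0.063, adjusted p = 8.91e-06 and 1.93e-05), as did the protease gene Ctsl (0.29 and 0.29, adjusted p = 0.000206 and 0.000621) and the membrane protein gene Lamp2 (0.22 and 0.15, adjusted p = 1.23e-05 and 0.0169). Ctsh (-0.21 ± 0.085, adjusted p = 0.0390) fell in striatum, and Ctsa fell in both tissues (-0.14 and -0.21, adjusted p = 0.0178 and 0.000253). Of 16 further surface and effector genes 10 fell and 2 rose in striatum, and 6 fell and 1 rose in cortex. In striatum Sparc (-0.62 ± 0.14, adjusted p = 0.000906), a matrix protein, P2ry6 (-0.48 ± 0.15, adjusted p = 0.0113), the UDP receptor, and Hpgds (-0.44 ± 0.092, adjusted p = 0.000355), a prostaglandin synthase, fell. Rgs10, a regulator of G protein signalling, fell in both tissues (-0.59 and -0.46, adjusted p = 5.40e-07 and 0.000543). In cortex Gpr84 (0.57 ± 0.23, adjusted p = 0.0451), a receptor induced on activated myeloid cells, rose. P2rx4, an ATP-gated channel, fell in cortex (-0.38 ± 0.068, adjusted p = 9.03e-05) and rose in striatum (0.24 ± 0.062, adjusted p = 0.00253). Cst3, cystatin C, fell in both tissues (-0.29 and -0.31, adjusted p = 0.0428 and 0.0186). Between inhibitor and vehicle R6/2 mice no gene of these lists was called in either tissue.

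Markers of other cell types moved with genotype as well, and their part in the member differences was not tested. Of 10 astrocyte markers 9 fell in striatum and 8 in cortex of vehicle R6/2 mice. Their summed level in striatum was 3115 to 3605 CPM in inhibitor R6/2, 2931 to 3920.1 CPM in vehicle R6/2 mice and 5229 to 6409.7 CPM in WT mice, with no overlap between R6/2 and WT. In cortex it was 3003 to 4252 CPM in inhibitor R6/2, 3178.98 to 4602 CPM in vehicle R6/2 mice and 5405 to 7695 CPM in WT mice, again with no overlap. This stands beside the cortical Mertk result, since astrocytes express that gene. The glutamate transporter gene Slc1a2 had log2 fold changes of -0.96 in striatum and -0.80 in cortex, and the glycolytic gene Aldoc of -0.74 and -0.88.

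Of 10 oligodendrocyte markers 7 fell in each tissue, with striatal sums of 5907 to 11565 CPM in inhibitor R6/2, 8075 to 8691 CPM in vehicle R6/2 mice and 10069 to 13859 CPM in WT mice. Of 10 endothelial markers 9 fell in striatum and 1 in cortex, with striatal sums of 258 to 332 CPM in inhibitor R6/2, 288 to 333 CPM in vehicle R6/2 mice and 347 to 461 CPM in WT mice. Of 10 neuronal markers 7 fell in each tissue, and 2 rose in striatum and 1 in cortex. Markers of border macrophages, which line vessels and meninges, were low, with striatal sums of 7.38 to 12.97 CPM in inhibitor R6/2, 10.98 to 14.4 CPM in vehicle R6/2 mice and 9.73 to 15.3 CPM in WT mice; of 9 tested in striatum 1 fell, Ms4a7 (-0.69 ± 0.27, adjusted p = 0.0359), and of 10 in cortex 1 rose, Ccr1 (1.04 ± 0.29, adjusted p = 0.00588). Markers of blood leukocytes were near 0: 2 of 14 passed the filter, none was called, and the striatal sums were 1.30 to 3.06 CPM in inhibitor R6/2, 1.23 to 3.21 CPM in vehicle R6/2 mice and 1.58 to 3.17 CPM in WT mice. Camp, a granulocyte gene, was listed at 0 in every R6/2 striatal library. The list's T cell gene Cd3e was at most 0.109 CPM in any library.

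Kmo, the gene of the drug's target, was at 0.917 CPM or less in every library and did not pass the filter; it averaged 0.265 ± 0.223 CPM in the striatum of inhibitor R6/2 mice, 0.187 ± 0.323 CPM in that of vehicle R6/2 mice and 0.206 ± 0.200 CPM in that of WT mice (SD, n = 8, 7 and 8). Of 6 kynurenine enzyme genes tested 3 fell and 1 rose in striatum, and 3 fell and 2 rose in cortex. The tryptophan-degrading enzyme genes Ido1 (-1.49 in striatum and -1.98 in cortex, adjusted p = 1.01e-05 and 0.000399) and Ido2 (-0.67 and -0.78, adjusted p = 0.000413 and 0.000109) fell, and Afmid rose (1.20 and 1.03, adjusted p = 1.15e-05 and 9.20e-07).

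Members moved together between animals of 1 group. After group and sex means were removed, the median correlation of a member with the other 34, taken over the members, was 0.44 in striatum and 0.36 in cortex (Pearson r over 23 libraries, a description only, since all members share each library's scaling). In striatum Selplg, Ly86 and Trem2 had median correlations of 0.63, 0.61 and 0.59. The closest striatal partners included C1qb with C1qc (r = 0.91) and P2ry12 with P2ry13 (r = 0.87). Aif1, Fcrls, Stab1, Ptprc and Mertk had the lowest medians in striatum, at -0.072, -0.034, -0.013, 0.11 and 0.11. Mertk and Fcgr3 had the lowest in cortex (-0.13 and -0.081).

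**Figure D5:**
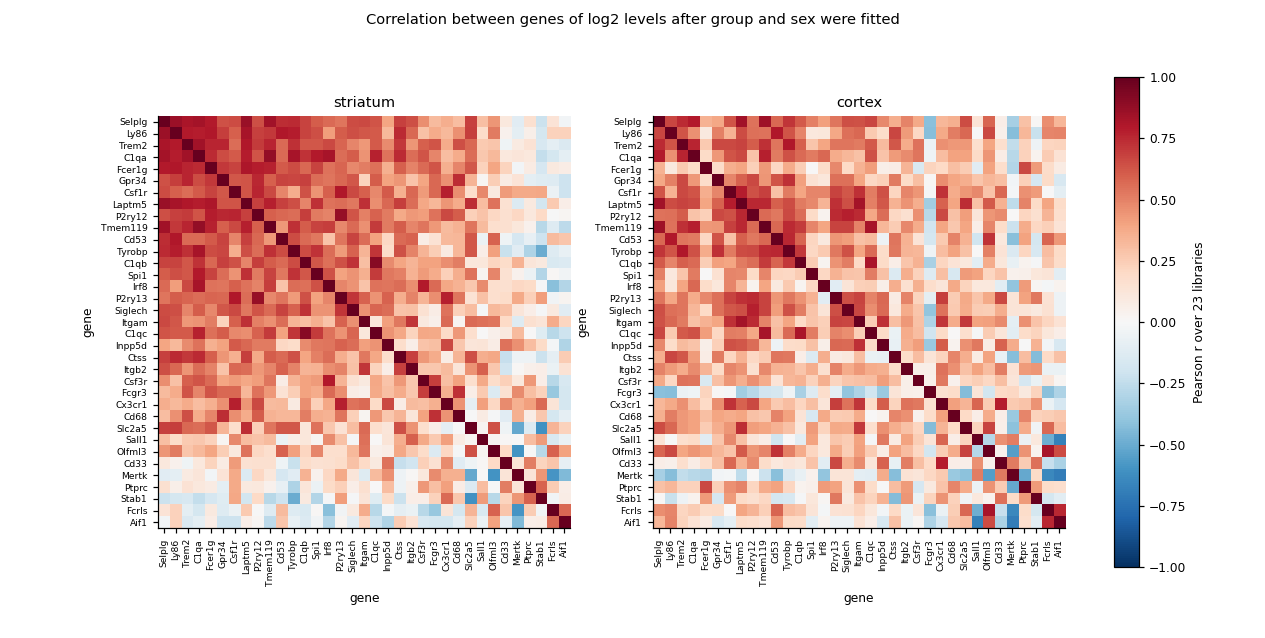
Pearson correlation between members over 23 libraries after group and sex means were removed, in striatum and in cortex; colour runs from negative to positive r. Most members correlate positively, and Aif1, Fcrls, Stab1, Ptprc and Mertk have the lowest median r in striatum.

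Some members share their position with other genes, and whether counting used the strand is not given in the sources used here, so reads of the partners cannot be told apart with certainty. P2ry12 and P2ry13 lie within Med12l on the opposite strand, which had 1.40 and 4.33 times their counts. Gpr34 lies within Cask (6.69 times), Cx3cr1 overlaps Wdr48 on the opposite strand (1.66 times) and Gorasp1 and Csrnp1 on its own (0.683 and 0.133 times), and Irf8 overlaps Gm20388 on its own strand (11.1 times).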

How the data were processed

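RNA sequencing was read from tables of estimated counts and FPKM per gene that the authors deposited for 23 striatal and 23 cortical libraries; per the labels' protocols, total RNA was extracted from flash-frozen tissue. Per the submitters' processing notes, CASAVA 1.8.2 was used and the build was mm10; which aligner, counting program and annotation were used, and whether strand was, the sources used here do not state. The deposited estimated counts were rounded to whole numbers. Genes were filtered with filterByExpr, scaled by TMM and tested with edgeR 4.0.16 (R 4.3.3, quasi-likelihood test, 3 groups and sex per tissue), with Benjamini-Hochberg adjustment over all genes and a threshold of 0.05; the standard error is the log2 fold change divided by the root of the F statistic. The deposited FPKM served for levels compared between genes and for limma 3.58.1 on log2(FPKM + 0.1) and log2(FPKM + 1); DESeq2 1.42.0 was a further alternative. CPM are TMM-scaled over all 46 libraries. Positions are from GENCODE vM21 on mm10 and promoters from RefSeq. The fits were tested on simulated data.

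The members and lists were chosen with earlier results of these data known. Values are printed for P2ry12, Tmem119, Cx3cr1, Csf1r, C1qa, Trem2 and Tyrobp whatever they show, for up to 6 called members per tissue by size of the log2 fold change, for up to 4 members with a called tissue difference, and for up to 4 called genes per tissue of each other list; other members, such as Fcrls and Sall1, were named after their values were seen. The labels give the animal of each library, and deviations of the 2 libraries of 1 animal correlated in 23 of 23 animals (r = 0.17 to 0.54), so tissue comparisons used the animal as a block. Replicate numbers did not pair animals within a tissue. Promoters of 8 members were not analysed here. The values of 1 gene of the other lists are not reported here.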

Additional observations from a re-analysis of the deposited data

Results flagged for a closer look

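Each member, and the members' sum, was tested in each group for 1 animal far from the others. Of these 216 tests 10 flagged an animal, no more than chance alone gives (about 5%). The tests share libraries and are not independent. In striatum WT replicate 1 was far above the other WT animals for Ly86 (18.5 CPM, with the next highest at 13.7 CPM) and for Spi1 (4.38 CPM, with the next highest at 3.11 CPM). WT replicate 7 was far above for Cx3cr1 (85.5 CPM, with the next highest at 75.1 CPM). Among inhibitor R6/2 mice, striatal replicate 6 was far above for Itgb2 (7.48 CPM, with the next highest at 6.30 CPM) and striatal replicate 8 for Ptprc (8.14 CPM, with the next highest at 5.27 CPM). In cortex inhibitor R6/2 replicate 6 was far below the others for Selplg (20.4 CPM, with the next lowest at 24.7 CPM) and far above for Fcgr3 (15.8 CPM, with the next highest at 10.6 CPM). Cortical vehicle R6/2 replicate 2 was far above for Gpr34 (18.4 CPM, with the next highest at 14.5 CPM). Of the cortical WT animals, replicate 4 was far above for Olfml3 (22.7 CPM, with the next highest at 15.8 CPM) and replicate 6 for Trem2 (15.2 CPM, with the next highest at 11.7 CPM).

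The log2 difference between vehicle R6/2 and WT mice itself differed between tissues for 8 members (edgeR, animal as a block). Striatum minus cortex, it was -0.50 for Ly86, -0.33 for Slc2a5, -0.32 for Irf8, -0.29 for Olfml3, -0.29 for Gpr34, -0.24 for Cx3cr1, -0.23 for P2ry13 and 0.26 for Mertk. Without the animal of WT striatum replicate 1, the highest in summed level, 5 members were more negative in striatum and 1 more positive; Slc2a5 and Irf8 were no longer called.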

How the results depend on the processing

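Members called for vehicle R6/2 against WT in striatum numbered 15. They numbered 7 with total-count scaling, 6 with limma on log2(FPKM + 0.1), 6 with log2(FPKM + 1), 3 with FPKM and no filter, and 9 with the replicate number as a block; that block moved no other count by over 1.5 times. The replicate numbers share no animal within a tissue: at most 1 pair per comparison correlated above 0.1, and not every sample correlated best with its own number. For inhibitor R6/2 against WT, 28 members were called in striatum, and 18, 17, 17 and 14 with total counts and the 3 FPKM settings in that order; in cortex the 13 became 7 under each of these 4. The summed striatal level of inhibitor R6/2 over WT mice was 0.804, and 0.893 with total counts and 0.891 as FPKM, a setting added after seeing the data. The 8 tissue differences became 3 with no filter, 2 with total counts and 1 without the animal block (these fits' replicate block). FPKM carry total-count scaling, which moved the all-gene median up by 0.12 to 0.14 in striatum; the causes of the other changes were not tested. Vehicle R6/2 against WT in cortex gave 4 to 7 under all settings, and inhibitor against vehicle gave 0 in both tissues. Without 1 library at a time the counts against WT were 10 to 17 and 24 to 31 in striatum for vehicle and inhibitor R6/2 mice, and 4 to 7 and 9 to 15 in cortex. No named member called under a setting or its alternative reversed its direction; uncalled ones near 0 did, as Tmem119 in both tissues with total counts (0.067 and 0.062; -0.060 and -0.022 with TMM). Of the striatal vehicle calls Siglech, Tyrobp, Stab1 and Itgb2 held in 16, 18, 17 and 9 of 23 fits without 1 library. At this depth, the median standard error of a member was 0.098 on the log2 scale in striatum for vehicle R6/2 against WT, so differences of a few percent were not detectable. Larger ones could be missed too. In simulated counts edgeR recovered 17 of 67 changes of 0.25 on the log2 scale in striatum and 20 of 67 in cortex. Far fewer genes were changed in the simulation than were called here between vehicle R6/2 and WT mice. The Benjamini-Hochberg adjustment is stricter when fewer genes change, so these recovered shares are not the rates for the data.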
